A study of Rattus norvegicus with 8 samples.

Results

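The genes described here are 10 genes of cartilage: Acan, Comp, Matn1, Matn3, Matn4, Hapln1, Chad, Cnmd, Sox5 and Sox6. They were chosen by symbol, as the array rows whose platform annotation lists exactly 1 gene symbol and lists one of these, and all 10 had such a row, 1 row each, among 22093 named genes. Whole lungs of newborn Rattus norvegicus pups were measured on 8 Affymetrix arrays, each labelled as the lung of 1 pup, with values on a log2 scale; whether RNA of several pups was pooled is not given in the sources used here. Of these lungs, 4 are titled as coming from a vitamin D deficient mother, read here as a dam whose diet held 0 IU of vitamin D per kg and who was mated once her serum 25-hydroxyvitamin D, measured at 8 weeks of age, was below 10 ng/ml. The other 4 are titled control, read here as pups of dams fed 1000 IU of vitamin D per kg. All dams were bought at 4 weeks of age and kept without ultraviolet light at the altitude of Denver on a semi-purified diet with 0.5% calcium and 0.4% phosphorus, and the stated mates of deficient dams were vitamin D replete males. Pups were born at term, and the labels give their age as day 0 in one place and as day of life 1 in another. Strain is not given in the sources used here, and neither is the litter of each pup, so the p-values below speak only of the variation among these 8 arrays, each called a lung below, and may understate that among litters.

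The sources disagree on which lungs are which. In the authors' deposited table of called genes, 8 of 8 sample columns match, within 5e-05 on the log2 scale, the lung with the same number but the other title. The groups are therefore called titled deficient and titled adequate, every direction is by title, and that table runs the other way. The lungs also differed in Y-linked signal. The Y-linked gene Ddx3y had log2 levels of 5.90, 5.77, 5.88 and 5.71 on titled deficient 1 to 4, against 13.45, 13.43, 8.71 and 7.40 on titled adequate 1 to 4. The 2 highest arrays and the 2 intermediate ones were all titled adequate, so differences in Y-linked signal and in title cannot be told apart over all 8 arrays. Values without 1 or both of these pairs are given below for some of the genes only. Median log2 level per array over all transcript clusters lay between 5.58 and 5.65 in titled deficient and between 5.50 and 5.59 in titled adequate.

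Airway cartilage holds the trachea and the main bronchi open, and in rats and mice it lies largely outside the lung itself, so a whole lung carries more or less of it depending on how much main bronchus is taken. Its matrix is a mesh of type II, IX and XI collagen filled with aggrecan, a large proteoglycan whose chondroitin sulfate chains hold water. The transcription factor SOX9 starts the cartilage programme, and SOX5 and SOX6, which lack an activation domain of their own, bind beside it and strengthen it. Calcitriol, the hormone form of vitamin D, acts on growth cartilage and bone mainly through calcium supply.

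Most of these genes read low on the arrays. Of the 10 genes, 3 (Matn4, Sox5 and Sox6) passed the level filter, a mean log2 level of 5.32, which is percentile 30 of the gene means. The other 7, which are most of the matrix genes, read below it. The closest to the filter was Cnmd on the low side, with a mean of 5.26, and Sox6 on the high side, with a mean of 5.91. As a yardstick for empty probes, antigenomic control rows, which match no rat sequence, had mean log2 levels of 3.71 to 3.87 on the titled deficient arrays and of 3.87 to 3.92 on the titled adequate arrays. Negative control rows had higher medians, 6.89 to 7.22 in titled deficient and 6.82 to 6.97 in titled adequate, so all members but Matn4 and Sox5 also read below those. Heights of different probes are not comparable, so these levels do not say how much cartilage the lungs held; its part in the rows was not tested, and the 10 are called cartilage genes by their known role only.

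**Figure D1:**
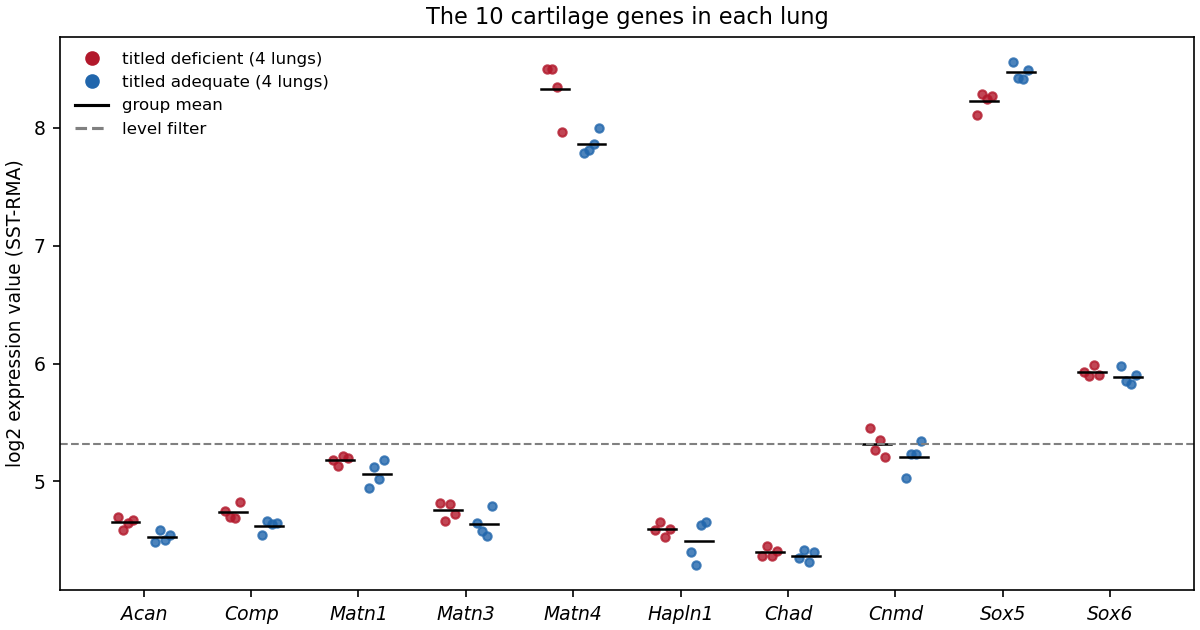
Log2 expression value (vertical axis) of each of the 10 cartilage genes (horizontal axis) in the 4 lungs titled deficient (left, red) and the 4 titled adequate (right, blue). Each point is 1 lung, short black lines are group means, and the dashed line is the level filter at 5.32. Only Matn4, Sox5 and Sox6 have group means well above that line, and rows of different genes are not comparable in height.

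Among the matrix genes, Matn4 was the one member called. It encodes matrilin 4, a member of the family of adaptor proteins that join collagen fibrils and proteoglycans into filaments, and like matrilin 2 it is also made outside cartilage. Its log2 levels were 8.50, 8.50, 8.35 and 7.97 on titled deficient 1 to 4, against 7.79, 7.81, 7.86 and 8.00 on titled adequate 1 to 4. Titled deficient 1 to 3 lay above every titled adequate lung, while titled deficient 4 lay among them, so the groups overlapped. Matn4 was 1.38-fold higher in titled deficient (log2 difference 0.47, SE 0.13, 95% interval 0.19 to 0.75, adjusted p = 0.0275 with limma and Benjamini-Hochberg adjustment over 15465 genes). That is 1 of the 3 members tested, against 8.24% of all genes tested that were called higher in titled deficient and 21.9% called in either direction. Because these are bulk lungs, more or fewer cells that express a gene and more or less RNA per cell cannot be told apart.

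The call for Matn4 was narrow. Leaving out any 1 of titled deficient 1, 2 or 3, or titled adequate 1, 2 or 3, ended it, with log2 differences of 0.41, 0.41, 0.46, 0.44, 0.45 and 0.46 and adjusted p between 0.0500429 and 0.0762. Without titled deficient 4, the lung that overlapped, the difference was 0.59 (adjusted p = 0.00404). Without the arrays of highest Y-linked signal, titled adequate 1 and 2, it was 0.40 (adjusted p = 0.132), and without the intermediate ones, titled adequate 3 and 4, it was 0.53 (adjusted p = 0.0532). Over all 20 alternatives the difference was positive, between 0.39 and 0.59, with adjusted p between 0.00281 and 0.132, and 10 of the 20 kept the call.

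The other matrilins on the list read below the level filter. Matn1, the cartilage matrix protein that marks tracheal and other non-articular cartilage, had log2 levels of 5.18, 5.13, 5.22 and 5.20 in titled deficient, against 4.94, 5.12, 5.02 and 5.18 in titled adequate. Matn3, a matrilin of growing cartilage, had 4.82, 4.67, 4.81 and 4.72 in titled deficient, against 4.65, 4.58, 4.54 and 4.80 in titled adequate. In both genes the ranges of the groups overlapped. Matn2, the remaining matrilin, which is made in many connective tissues and is no member, read at 7.23 ± 0.13 in titled deficient and 7.08 ± 0.15 in titled adequate (SD, n = 4 each) and was not called.

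Aggrecan and its partners were also at the low end. Acan, the gene for aggrecan, had log2 levels of 4.70, 4.59, 4.64 and 4.68 on titled deficient 1 to 4, against 4.49, 4.59, 4.50 and 4.54 on titled adequate 1 to 4. The lowest titled deficient value, 4.588, barely exceeded the highest titled adequate value, 4.587, so the groups did not overlap. Hapln1, which encodes the link protein that ties aggrecan to hyaluronan, had 4.58, 4.66, 4.53 and 4.59 in titled deficient, against 4.40, 4.29, 4.63 and 4.65 in titled adequate. Here titled adequate 3 and 4 read with the titled deficient lungs and titled adequate 1 and 2 read below. Comp, which encodes cartilage oligomeric matrix protein, a thrombospondin that helps collagen fibrils assemble, had 4.75, 4.69, 4.69 and 4.82 in titled deficient, against 4.55, 4.67, 4.64 and 4.65 in titled adequate, also without overlap.

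The remaining 2 matrix members showed overlapping groups. Chad encodes chondroadherin, a leucine-rich repeat protein through which chondrocytes hold on to their matrix. It had log2 levels of 4.37, 4.45, 4.37 and 4.41 in titled deficient, against 4.35, 4.41, 4.32 and 4.40 in titled adequate. Cnmd encodes chondromodulin, a membrane protein whose released part keeps blood vessels out of cartilage. It had 5.45, 5.26, 5.35 and 5.20 in titled deficient, against 5.03, 5.24, 5.23 and 5.34 in titled adequate, and 3 of its 8 values reached the level filter.

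These 7 low rows differed between the groups by small amounts of one sign, which many other low rows did too. Their log2 differences, titled deficient minus titled adequate, ran from 0.03 for Chad to 0.12 for Acan, with a median of 0.11. Among 4581 other genes over the same range of mean level, 70.7% were also higher in titled deficient, with a median of 0.07 and percentiles 10 and 90 at -0.12 and 0.20, so the 7 members lay inside that range. No overlap with titled deficient on top was seen for 2 of the 7 (Acan and Comp), against 14.3% of the 6628 genes below the filter, and for titled deficient underneath the count was 0 of 7 against 1.84%. Tested without the level filter, 0 of the 7 were called in limma, with adjusted p between 0.111 and 0.684 (1 of them, Acan, had an unadjusted p of 0.03), where that fit called 6.53% of all 22093 genes higher and 8.96% lower, and 5.19% higher and 1.15% lower of the genes below the filter. The sign also depended on scaling: Chad turned to -0.024 after a further quantile normalization, -0.029 after cyclic loess and -0.041 with arrays centred on the median of all transcript clusters, while the other 6 stayed above 0. Control rows for empty probes differed by base content. The largest difference, -0.40, was in the 1 antigenomic row with 3 G or C bases of 25, at 6.75 in titled deficient and 7.15 in titled adequate. Its groups overlapped, at 6.56 to 6.94 in titled deficient and 6.57, 7.25, 8.08 and 6.69 on titled adequate 1 to 4. The row with 12 such bases differed by -0.06, and the row with 24, at 4.57 and 4.54, by 0.03. The part of this in the low rows was not tested.

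**Figure D2:**
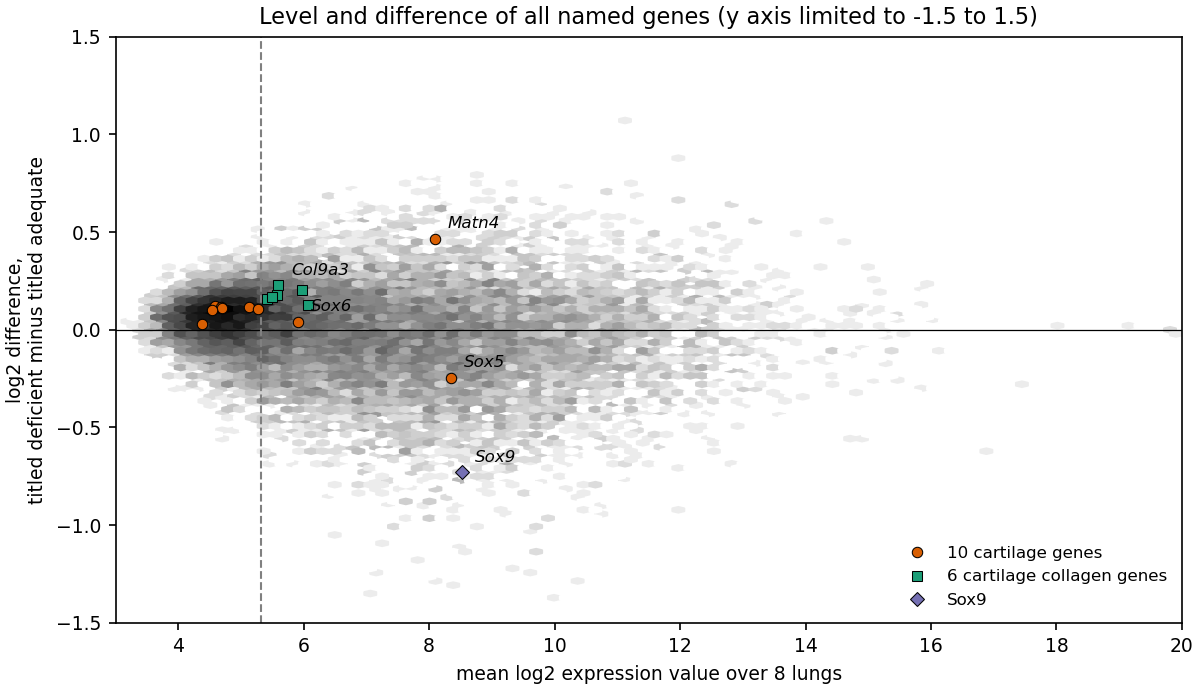
Mean log2 level over 8 lungs (horizontal axis) against the log2 difference, titled deficient minus titled adequate (vertical axis, cut at the limits drawn), for all 22093 named genes as grey bins, darker where more genes fall. Coloured marks are the 10 cartilage genes, the 6 cartilage collagen genes and Sox9, and the dashed line is the level filter. The 7 members left of the line sit inside the cloud of other low genes, slightly above 0, while Matn4 lies at 0.47, Sox5 at -0.24 and Sox9 at -0.73.

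Of the pair of SoxD transcription factors, Sox5 separated the groups and Sox6 did not. Sox5 had log2 levels of 8.11, 8.29, 8.25 and 8.27 on titled deficient 1 to 4, against 8.56, 8.43, 8.41 and 8.50 on titled adequate 1 to 4. All 4 titled deficient lungs lay below all 4 titled adequate lungs, an arrangement in that direction found in 16.7% of genes tested. The log2 difference was -0.24 (SE 0.08, 95% interval -0.42 to -0.07), and it missed the threshold (adjusted p = 0.0533, limma), where 13.7% of genes tested were called lower in titled deficient. It passed in 4 of 20 alternatives: after cyclic loess (-0.26, adjusted p = 0.0366), with arrays centred on the median of all transcript clusters (-0.32, adjusted p = 0.0253), without a variance trend (adjusted p = 0.0435) and with array weights (adjusted p = 0.0385). With arrays centred on the median of the tested genes it was -0.14 (adjusted p = 0.252), and over all 20 alternatives adjusted p lay between 0.0253 and 0.252. Without titled adequate 1 and 2 the Sox5 difference was -0.23 (adjusted p = 0.15). Without titled adequate 3 and 4 it was -0.26 (adjusted p = 0.104).

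Sox6 encodes the closest relative of SOX5, and apart from cartilage it is used in red cell and muscle development. It had log2 levels of 5.93, 5.90, 5.98 and 5.90 in titled deficient, against 5.98, 5.85, 5.82 and 5.90 in titled adequate. The groups overlapped, and the difference of 0.04 (SE 0.06, 95% interval -0.09 to 0.18, adjusted p = 0.648, limma) did not pass. The sign of that difference turned under 3 of the scalings tried, and no alternative called it. Titled deficient 3 and titled adequate 1 were the highest arrays for Sox6, so neither group held both of them.

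RefSeq promoter windows (GRCr8, 250 bases before to 50 after the annotated start) were found for 6 members: Acan, Chad, Comp, Hapln1, Matn3 and Sox6. They were searched on both strands for ACAATG, the core letters that Sox proteins prefer, the only motif searched. Sox6 was the 1 of the 6 that held the letters, once in each orientation, and 13.2% of all 33469 promoter windows held them. The Sox6 window, from the member that read above the filter, and the Acan window, from the namesake of the cartilage matrix, are shown for comparison, with the matched letters in capitals. They lie at chr1:179665322-179665621 on the minus strand and at chr1:142390701-142391000 on the plus strand.
Sox6: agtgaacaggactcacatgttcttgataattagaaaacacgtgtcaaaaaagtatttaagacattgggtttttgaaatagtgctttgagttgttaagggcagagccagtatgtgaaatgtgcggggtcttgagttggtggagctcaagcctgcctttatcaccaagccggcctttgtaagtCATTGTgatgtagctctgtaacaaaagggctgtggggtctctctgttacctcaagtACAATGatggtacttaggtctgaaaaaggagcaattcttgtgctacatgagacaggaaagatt
Acan: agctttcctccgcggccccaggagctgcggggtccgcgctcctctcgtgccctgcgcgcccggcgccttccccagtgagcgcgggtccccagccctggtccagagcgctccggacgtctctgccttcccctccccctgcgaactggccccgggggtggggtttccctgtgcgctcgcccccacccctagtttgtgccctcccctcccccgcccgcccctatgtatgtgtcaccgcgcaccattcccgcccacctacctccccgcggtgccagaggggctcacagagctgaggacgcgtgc
The windows differ in base content, with 42.0% G or C for Sox6 and 73.0% for Acan. The letters are a description of these windows, and no binding was measured here.

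**Figure D3:**
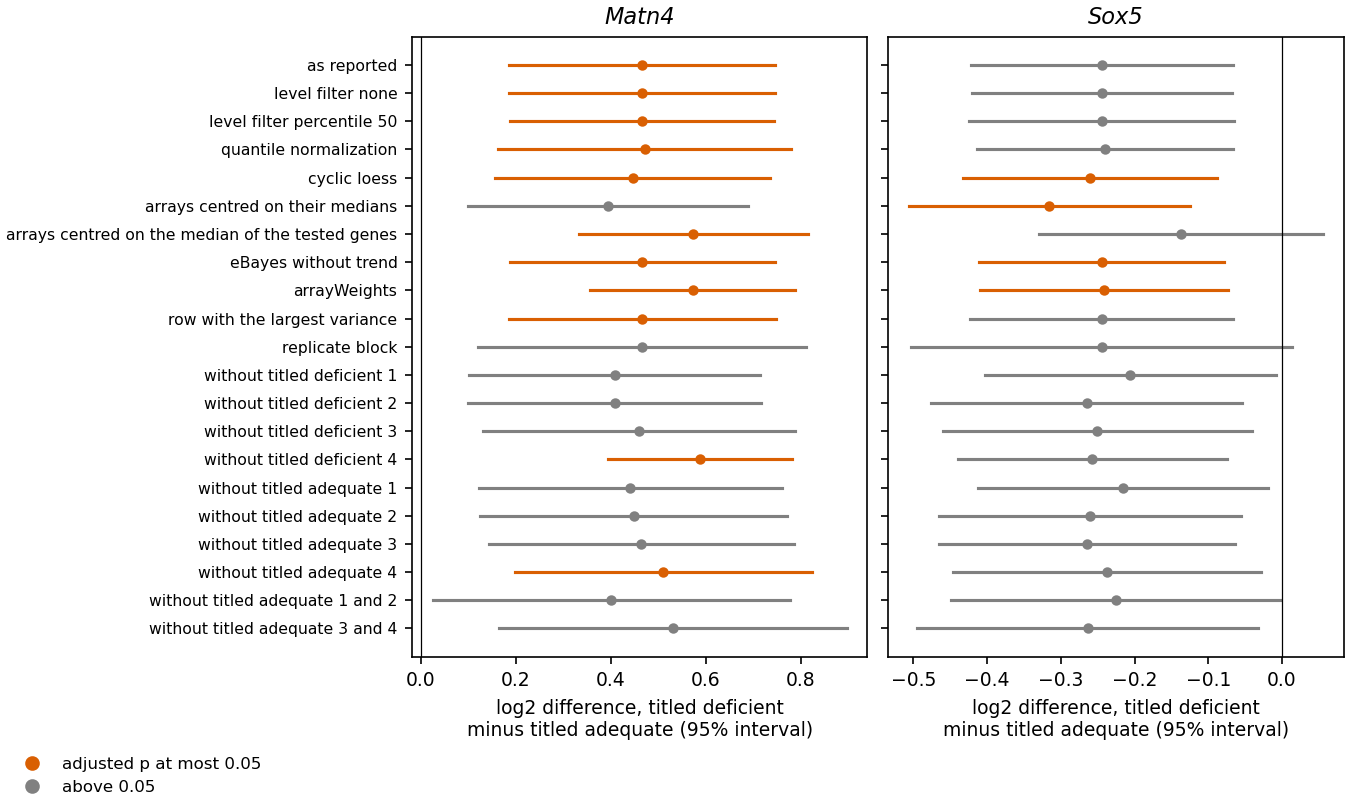
Log2 difference, titled deficient minus titled adequate, of Matn4 (left panel) and Sox5 (right panel) as reported and under the 20 alternatives listed on the vertical axis. Points are estimates, bars are 95% intervals, and orange marks an adjusted p of at most 0.05. Matn4 stays between 0.39 and 0.59 and Sox5 between -0.32 and -0.14, while their calls come and go.

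Sox9, the partner on which SOX5 and SOX6 act in cartilage, was lower in titled deficient. It had log2 levels of 8.21, 8.22, 8.23 and 7.98 in titled deficient, against 8.95, 8.99, 8.79 and 8.81 in titled adequate. The gap between the groups exceeded the spread within either, with an estimate of -0.73 (SE 0.09, adjusted p = 0.00118, limma), or 1.66-fold lower. All 20 alternatives kept this call, with differences between -0.81 and -0.62, and the authors' deposited table gives a signed fold of 1.66 for Sox9 under its opposite column names. In newborn lung Sox9 is also made by distal epithelial progenitors, so its level is not a measure of cartilage. Of the 4 SoxE and SoxD relatives of the members, 2 passed the level filter and Sox9 was the 1 called, where 21.9% of all genes tested were called in either direction. The authors' deposited table lists 0 of the 10 members, and it holds 9.35% of the 22093 named genes.

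The cartilage collagens, by contrast, read slightly higher in titled deficient. Their mean log2 levels, 5.42 to 6.07, lay near the level filter and below the negative control medians, the lowest of which was 6.82. Col2a1, the gene for the main collagen of cartilage, had log2 levels of 6.20, 6.07, 6.03 and 6.02 in titled deficient, against 5.78, 5.93, 5.92 and 5.88 in titled adequate. Col9a3, a chain of type IX collagen, had 5.70, 5.68, 5.69 and 5.77 in titled deficient, against 5.51, 5.54, 5.44 and 5.44 in titled adequate. On the deposited scale, in all 6 collagen genes (Col2a1, Col9a1, Col9a2, Col9a3, Col11a1 and Col11a2) the 4 titled deficient lungs lay above the 4 titled adequate lungs. This was so for 11.3% of all genes tested and 15.0% of 2286 other genes at the same levels. Of those 2286 genes, 58.9% had a higher mean in titled deficient. On the deposited scale the array medians were 5.58 to 5.65 in titled deficient and 5.50 to 5.59 in titled adequate. Whether the groups stay apart under other scalings was not tested.

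Of these 6 collagens, 2 were called higher in titled deficient, where 8.24% of all genes tested were. These were Col9a3 (log2 difference 0.23, SE 0.06, adjusted p = 0.019, limma) and Col11a2 (0.17, SE 0.05, adjusted p = 0.0478, limma). Col2a1 (0.20, SE 0.07, adjusted p = 0.0548) and Col11a1 (0.18, SE 0.06, adjusted p = 0.0562) missed, as did Col9a1 and Col9a2. The median difference over the 6 was 0.17, against -0.02 over all genes tested and 0.05 over the other genes at the same levels. Their direction stayed positive under each scaling tried (medians 0.09 to 0.28), but their calls did not. The number called was 0 after quantile normalization, after cyclic loess and with arrays centred on the median of all transcript clusters, and it was 6 with arrays centred on the median of the tested genes. Without titled adequate 4 it was 0, without any other single lung it was 1, without titled adequate 1 and 2 it was 1, and without titled adequate 3 and 4 it was 0.

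**Figure D4:**
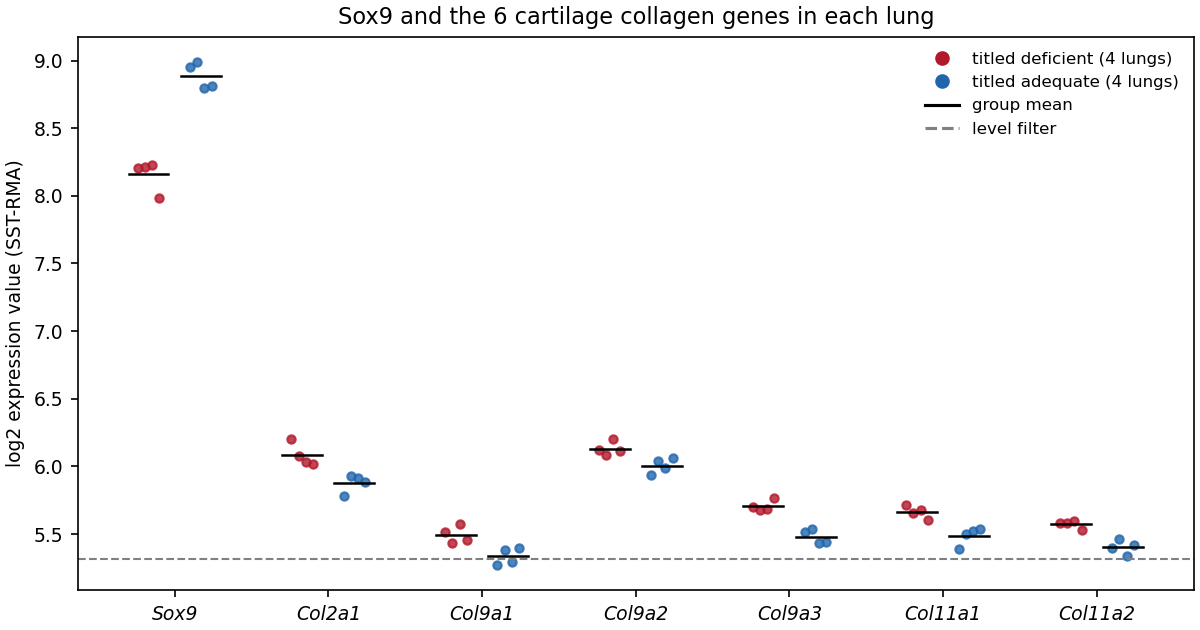
Log2 expression value (vertical axis) of Sox9 and of the 6 cartilage collagen genes (horizontal axis) in the 4 lungs titled deficient (left, red) and the 4 titled adequate (right, blue). Points are lungs, black lines are group means and the dashed line is the level filter. Sox9 is lower in every titled deficient lung and the collagens are a little higher in each, near the filter.

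Among the other regulators of chondrocytes, 6 of 12 passed the level filter, and of these 2 were called lower and 0 higher in titled deficient, where 13.7% of all genes tested were called lower and 8.24% higher. Besides Sox9, this was Fgfr3, the receptor that restrains cartilage growth, with log2 levels of 10.38, 10.67, 10.66 and 10.12 in titled deficient, against 11.28, 11.11, 11.37 and 11.56 in titled adequate (difference -0.87, SE 0.15, adjusted p = 0.00422). Which cells of the lung gave the Fgfr3 signal was not tested. Trps1, a repressor in chondrocytes, did not pass (-0.27, SE 0.10, adjusted p = 0.0793). Of the hypertrophic cartilage and bone genes, 4 of 10 passed the filter and 0 were called, against 21.9% of all genes tested. Runx2, Sp7 and Ibsp lay below the filter. Alpl, which encodes an alkaline phosphatase also made by lung epithelium, read at 11.62 ± 0.27 in titled deficient and 11.99 ± 0.14 in titled adequate (SD, n = 4 each, adjusted p = 0.0872, limma). Col10a1, Spp1 and Phex read higher in titled deficient (log2 differences 0.13, 0.51 and 0.30), and the median over the tested members was 0.22. The groups did not overlap for Col10a1, with titled deficient on top, or for Alpl, with titled deficient underneath. Of all genes tested, 11.3% and 16.7% had these arrangements. Runx2, below the filter, also had titled deficient underneath without overlap, at 4.83 to 4.99 against 5.01 to 5.26 in titled adequate. Of the genes below the filter, 1.84% had that arrangement.

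Of 14 other cartilage matrix genes, 6 passed the filter, 1 being called higher and 2 lower in titled deficient, against 8.24% and 13.7% of all genes tested. Fmod, which encodes the collagen-binding proteoglycan fibromodulin, fell to log2 levels of 7.89, 7.54, 7.64 and 7.01 in titled deficient, against 7.99, 8.19, 8.74 and 8.75 in titled adequate (difference -0.90, SE 0.22, adjusted p = 0.0192). Its call ended without titled adequate 3 and 4 (-0.57, adjusted p = 0.102). Mia, a small secreted protein of chondrocytes, was lower by a log2 difference of -0.22 (SE 0.06, adjusted p = 0.0379), and Clec3a, a cartilage lectin, was higher by 0.26 (SE 0.08, adjusted p = 0.047). The calls of both ended in most fits that left out 1 lung. Both genes read near the filter. The titled deficient mean of Mia (5.23) and the titled adequate mean of Clec3a (5.28) lay below it. Each thus passed the filter only through its higher group, and nothing further is read from these calls. Other members of this list, such as Snorc, Ucma and Epyc, lay below the filter.

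Genes that build and sulfate the chains of aggrecan and related proteoglycans had 9 of 10 members measured and tested. Of the 9, 1 was called higher and 2 lower in titled deficient, against 8.24% and 13.7% of all genes tested. Csgalnact1, which starts chondroitin chains, was lower (log2 difference -0.63, SE 0.12, adjusted p = 0.00642), as was Chpf, a chondroitin polymerising factor (-0.42, SE 0.07, adjusted p = 0.00351). Slc26a2, the sulfate transporter whose loss causes skeletal dysplasia in people, was higher (0.34, SE 0.08, adjusted p = 0.0169), a call that ended with arrays centred on the median of all transcript clusters (0.26, adjusted p = 0.0689), without titled deficient 2 (0.30, adjusted p = 0.0532) and without titled adequate 1 and 2 (0.27, adjusted p = 0.0873). The calls were thus mixed in direction.

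Relatives and proteases of the members gave further contrasts. Of the lecticans and link proteins, 2 of 6 passed the filter and 1 was called, where 21.9% of all genes tested were called in either direction. This was Vcan, which encodes the versican of soft tissues, 1.37-fold higher in titled deficient. Its log2 levels were 14.05, 14.11, 13.91 and 14.39 there, against 13.58, 13.60, 13.73 and 13.73 in titled adequate (difference 0.45, SE 0.11, adjusted p = 0.0217). Its call ended after cyclic loess (0.27, adjusted p = 0.145) and quantile normalization (0.37, adjusted p = 0.061), without titled deficient 2, titled adequate 1 or titled adequate 2 (adjusted p = 0.0556, 0.0543 and 0.0531) and without titled adequate 1 and 2 together (0.38, adjusted p = 0.12). Among the thrombospondin relatives of Comp, Thbs3 was lower (-0.33, SE 0.08, adjusted p = 0.0175; 0.0625 without titled adequate 1 and 2 and 0.056 without titled adequate 3 and 4), and Thbs1 did not pass (-0.92, SE 0.34, adjusted p = 0.0775). Of 6 proteases that can cut aggrecan, all tested, 1 was called, where 21.9% of all genes tested were called in either direction. This was Adamts1, 4.24-fold lower in titled deficient, at 11.89 ± 0.16 against 13.97 ± 0.18 in titled adequate (SD, n = 4 each). Its log2 difference was -2.08 (SE 0.12, adjusted p = 1.56e-05, limma). Which cells of the lung gave the Adamts1 signal was not tested. Adamts4 and Adamts5, the main aggrecanases of joint cartilage, were not called.

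**Figure D5:**
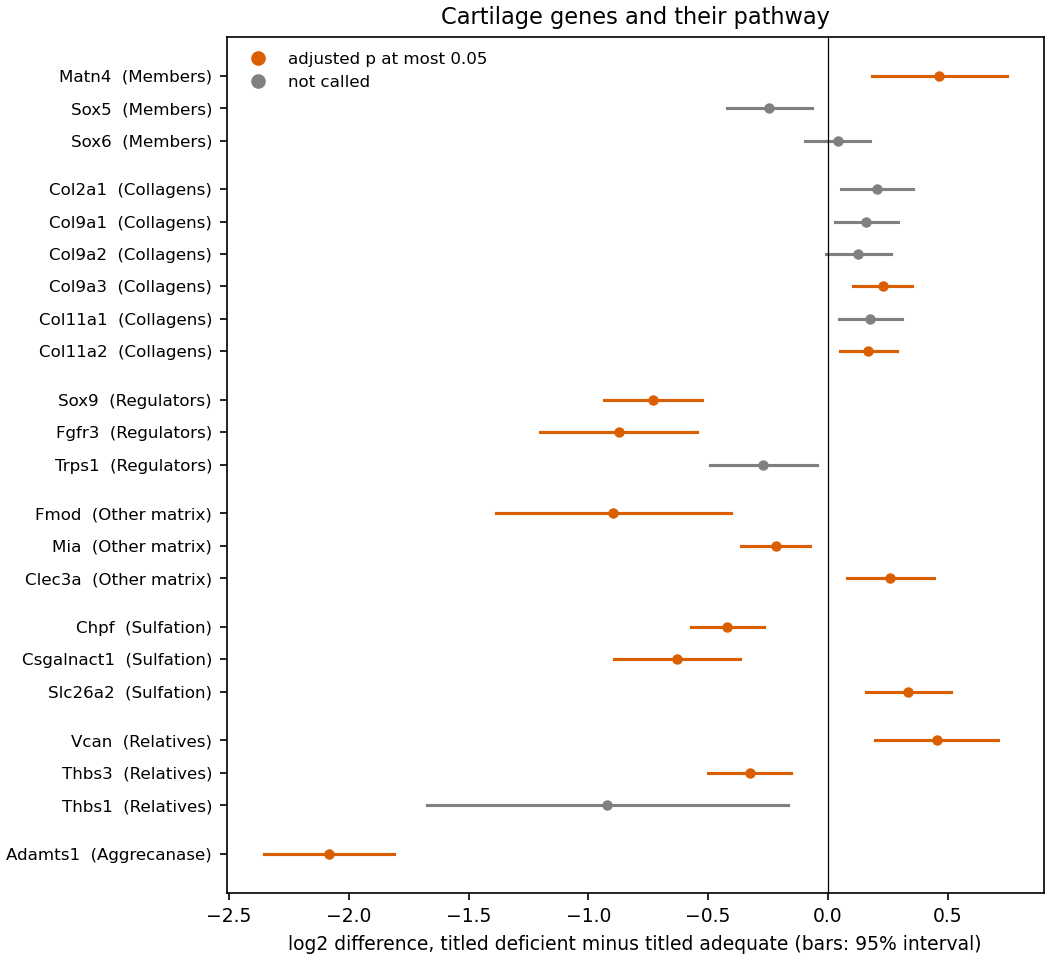
Log2 difference, titled deficient minus titled adequate (horizontal axis), of the tested members, the cartilage collagens, Sox9 and other genes of the pathway, grouped down the page. Points are estimates, bars are 95% intervals, orange marks an adjusted p of at most 0.05 and grey the rest. Adamts1 lies furthest from 0 at -2.08, and the collagens all lie between 0.13 and 0.23.

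Large airway and neighbouring tissue were followed by marker lists, whose counts stand beside the 21.9% of all genes tested that were called in either direction. Smooth muscle genes had 0 of 7 members called, with their summed level at 15.43 to 15.98 on the log2 scale in titled deficient and 15.46 to 15.91 in titled adequate. That sum is weighted towards Acta2, at 15.51 in titled deficient and 15.40 in titled adequate. Single members differed both ways, among them Cnn1 by 0.58, Actg2 by 0.38 and Smtn by -0.37. Basal cell genes, which mark the trachea and large bronchi, had 4 of 5 measured. Of these Tp63 and Ngfr were below the filter and 0 of the other 2 were called, with a summed level of 8.04 to 8.97 in titled deficient and 7.93 to 8.14 in titled adequate. The keratin gene Krt15 had the larger difference of the 2, at 7.89 ± 0.55 in titled deficient and 7.19 ± 0.20 in titled adequate (SD, n = 4 each, adjusted p = 0.0608). Skeletal muscle genes had 0 of 5 tested members called (summed level 8.54 to 8.57 in titled deficient, 8.42 to 8.53 in titled adequate), with Myog, Myh8 and Myl11 below the filter, and heart muscle genes 0 of 4. Tendon genes had 0 of 2 tested members called, neural crest genes 0 of 1 and red cell genes 0 of 3. The genes that define lung had 4 of 7 members lower in titled deficient, among them Foxf1 (-0.55, SE 0.09, adjusted p = 0.00362), and 0 higher, where 13.7% of all genes tested were called lower and 8.24% higher. The part of these tissues in the differences of Matn4 and of the collagens was not tested.

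No single lung was highest or lowest for all members, but the highest was mostly a titled deficient lung and the lowest mostly a titled adequate one. Titled deficient 1 to 4 were the highest array for 4, 2, 2 and 1 of the 10 genes, and titled adequate 1 was the highest for 1 (Sox5). Titled adequate 1 to 4 were the lowest for 5, 1, 3 and 0, and titled deficient 1 was the lowest for 1 (Sox5). These ranks are for the deposited scale, and how often other genes rank in this way was not tested. Most of the members read below the level filter, where a higher mean in titled deficient was common. It was seen in 70.7% of 4581 other genes over the range of mean level of those low members. The ranks are therefore not read as a trait of the cartilage genes. Among tested genes, Ubxn6 followed the within-group deviations of the tested members most closely (Pearson r = 0.992 over 8 arrays, with the mean of Matn4, Sox5 and Sox6), followed by Cenpx, Snrpc, C10h17orf49 and Wdr24 at 0.985 to 0.990. These are the highest of the values over all 15465 genes tested, on 8 arrays that share each array's quality, and the mean they follow is largely that of Matn4, so they are given as a description.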

How the data were processed

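RNA of whole lungs was hybridised to 1-colour arrays, 8 in all and 4 per title. The deposited log2 values come from the authors' SST-RMA summary per gene (Affymetrix Expression Console), as the labels and the submitters' processing notes state, and RMA makes array distributions alike. No software version or genome build is given in the sources used here. The signed fold score of the authors' deposited table is a ratio of group means. Its 8 linear copies of sample columns were not used.

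Of 70580 rows, 1738 controls were left out; 23446 of 68842 transcript clusters carry 1 symbol. For 1182 genes with several rows the one of highest mean was taken. Genes below percentile 30 of the means were not tested. For the other 15465, limma 3.58.1 was run in R 4.3.3 (lmFit, eBayes with trend, 2-sided, Benjamini-Hochberg, threshold 0.05), a step tested on simulated data. Folds are 2 to the size of the difference. List levels are the log2 of summed linear values, so they are weighted towards the highest genes of a list. The number of arrays limits precision.

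Members and lists were chosen with earlier results of these data known. Named genes are all members, Sox9, the collagens and up to 3 of each other list by p, plus the 5 most alike in pattern. Matn2, Adamts4, Phex and genes named as below the filter fall outside that rule and were named after their values were seen. Arrays with the same replicate number were not taken as pairs: the correlations of their deviations from the group means were -0.17, 0.04, -0.35 and -0.28. Alternatives were other filters, scalings, priors, weights, rows, the replicate block and leaving out arrays; centring on the tested genes and leaving out pairs of titled adequate arrays were added after seeing the data.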

Additional observations from a re-analysis of the deposited data

Results flagged for a closer look

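In 6 of 112 groups of 4 lungs examined among 56 named genes, 1 lung lay far from the other 3, which chance gives in about 5% of groups. The measure is the lung's gap to its nearest neighbour as a share of the group's range. Titled deficient 4 was low for Sox9, at 7.98 against 8.21 to 8.23 in the other titled deficient lungs (0.899 of the range), for Sox13, at 8.22 against 8.71 to 8.73 (0.95), and for Col11a2, at 5.53 against 5.58 to 5.59 (0.845). Titled adequate 4 was high for Csgalnact1, at 8.26 against 7.86 to 7.88 (0.959). Titled deficient 3 was high for Thbs4, at 5.74 against 5.62 to 5.64 (0.881), and titled deficient 2 for Sftpb, at 18.67 against 18.63 to 18.64 (0.882). None of the 10 cartilage genes was among them.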

How the results depend on the processing

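The count of members higher in titled deficient, 1 as reported (Matn4), was 0 with arrays centred on the median of all transcript clusters, with the replicate block, without titled adequate 1 and 2 and without titled adequate 3 and 4, and it ranged from 0 to 1 when 1 lung was left out. The count lower, 0 as reported, was 1 (Sox5) after cyclic loess, with arrays centred on the median of all transcript clusters, without a variance trend and with array weights, and 0 in each of the 8 fits that left out 1 lung. With the replicate block Matn4 kept its difference of 0.47 and lost its call (adjusted p = 0.0822), and Sox5 had adjusted p = 0.182. The block also moved the count of all genes called to 1758, against 3390 as reported. Arrays with the same number share only that number. Sox6, called in no fit, read -0.029 after quantile normalization, -0.044 after cyclic loess and -0.030 with arrays centred on the median of all transcript clusters. The direction of Matn4, Sox5 and Sox9 was the same in every alternative run. Centring on the median of the tested genes shifted the median over all genes by 0.11, and centring on that of all transcript clusters by -0.07. Both subtract 1 constant per array, which moves every gene alike. The distance of Matn4 from that median, 0.48 as deposited, was therefore fixed in advance and is no check. The share of genes called that were higher in titled deficient was 37.6% as deposited, 28.7% after quantile normalization, 24.2% after cyclic loess, 19.8% with centring on all transcript clusters and 67.1% with centring on the tested genes. The cause of the lost calls was not tested. Fits that left lungs out also had fewer arrays. The 7 rows below the filter, tested without it, had SEs of 0.05 to 0.08 and were not called, which does not show that they did not change.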
